A study of Homo sapiens with 6 samples.

Results

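The genes described here were the snoRNA host lncRNAs and the small RNAs they belong with, the small nucleolar RNAs (snoRNAs) and small Cajal body RNAs (scaRNAs), in MM.1S cells, a human multiple myeloma line. Hosts were taken by name: every gene named SNHG followed by a number, plus GAS5, ZFAS1 and EPB41L4A-AS1. Small RNAs were chosen by annotated biotype and selected on their measured level, a mean of at least 1 FPKM over the 6 libraries. FPKM is the number of fragments scaled to gene length and to the depth of the library. This gave 154 of the 58735 genes in the table, 28 hosts and 126 small RNAs (121 snoRNAs and 5 scaRNAs). The level cutoff used both groups together, so being above it is a description and not a result.

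RNA-seq had been carried out to find genes downstream of PRMT1, the main enzyme that places asymmetric dimethylarginine on proteins. MM.1S cells labelled control (genotype control, transfected with si-NC) were compared with cells labelled KD (genotype *PRMT1* knockdown, transfected with si-*PRMT1*), with 3 libraries in each group. Both groups received siRNA at 100 nM and were taken after 72 h. Which of the PRMT1 siRNAs made these libraries was not given in the sources used here, and nothing in the labels places the libraries in separate cultures on separate days, so the p-values measure the spread between these libraries only. RNA came from whole populations of cells, where less RNA in every cell and fewer cells with that RNA cannot be told apart.

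Many snoRNAs work as guides, and the word guide is used below for every snoRNA and scaRNA, with or without a known target. Together with a fixed set of proteins, a snoRNA that works in this way base-pairs with ribosomal or spliceosomal RNA. It directs 2′-O-methylation of the ribose when it carries box C/D, or conversion of uridine to pseudouridine when it carries box H/ACA. scaRNAs do the same for spliceosomal snRNAs in the Cajal body. In human cells most of these guides are cut out of introns after splicing, and each is trimmed to length inside its protein particle. Some introns belong to protein-coding genes, often genes of ribosomal proteins or translation factors. Others belong to lncRNAs whose spliced product has no long reading frame. These are the SNHG genes, GAS5 and ZFAS1. Several spliced hosts are translated briefly and removed by nonsense-mediated decay, and several begin with the terminal oligopyrimidine (TOP) tract that ribosomal protein mRNAs have. SNHG14 is a special case. It is a very long transcript of the imprinted Prader-Willi region on chromosome 15, it carries the SNORD116 and SNORD115 clusters in its introns, and it runs antisense to UBE3A.

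*PRMT1* itself fell in every knockdown library. Its mean was 61.1 ± 1.97 FPKM (SD, n = 3) in control and 13.3 ± 0.775 FPKM (SD, n = 3) in *PRMT1* KD, a log2 fold change of −2.13. Reads assigned to genes numbered between 14439217 and 16465026 per library. The plasma cell genes SDC1, TNFRSF17, PRDM1, XBP1 and IRF4 stood above 15 FPKM in both groups, and CD38 was low at 1.92 FPKM in control. SLAMF7, another plasma cell marker, fell to 23.8 FPKM from 38.0 FPKM. Of the markers of other cells that were looked at, CD3E (33.4 FPKM in control) and KRT8 (22.0 FPKM) were high, while CD3D, CD2, CD14, LYZ, CSF1R, HBB, ALAS2, EPCAM, KRT18, CDH1, COL1A1, COL1A2 and DCN all stayed under 1 FPKM in both group means.

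The first point about the small RNAs was how they look and how little of them these libraries held. SNORD17 and SNORA73B, the most deeply covered box C/D and box H/ACA guides, show the features of each class. Their sequences are those of GENCODE release 29 on GRCh38, written as DNA from 5′ to 3′. SNORD17 lies at chr20:17962710-17962946 on the minus strand, inside SNX5, a gene for a sorting nexin of the endosome. SNORA73B lies at chr1:28508559-28508762 on the plus strand, inside SNHG3. Capitals mark the C box (TGATGA) and D box (CTGA) in SNORD17, and the ACA in SNORA73B.
SNORD17: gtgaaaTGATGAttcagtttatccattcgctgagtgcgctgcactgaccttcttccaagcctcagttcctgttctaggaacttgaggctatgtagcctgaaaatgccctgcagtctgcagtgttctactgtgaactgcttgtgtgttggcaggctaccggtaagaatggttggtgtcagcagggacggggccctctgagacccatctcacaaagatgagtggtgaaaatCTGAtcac
SNORA73B: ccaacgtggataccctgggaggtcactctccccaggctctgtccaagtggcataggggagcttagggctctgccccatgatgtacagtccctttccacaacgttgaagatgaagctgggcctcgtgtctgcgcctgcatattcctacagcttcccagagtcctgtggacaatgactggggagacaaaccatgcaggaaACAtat
A C box was looked for within the first 24 bases and a D box within the last 20, on the RNA strand only. Both were present in 75.4% of the 57 SNORD members and in 67.6% of all 278 SNORD genes in the table. Over all 992 snoRNA and scaRNA genes, of every class, the share was 22.7%. An ACA placed 3 bases from the end was present in 77.1% of the 35 SNORA members and in 76.2% of all 147 SNORA genes. Over the 992 the share was 30.9%. These letters thus go with the class in the name and are not particular to the members. A missing match says only that these letters were not in those windows.

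The 126 small RNAs drew 1106 to 1265 reads per library, or 0.00697% to 0.0078% of the reads on genes. The 2 groups overlapped in this share, from 0.00697% to 0.0078% in control and from 0.00734% to 0.00775% in *PRMT1* KD. Most guides rested on very few reads. The reads behind each value were worked back from FPKM and gene length, and the median of the mean reads over the 126 was 5.58 per library, against 490 over the 23 hosts that reached 1 FPKM. Of the 126, 90 had a mean under 10 reads, 36 had 10 or more and 5 had 30 or more, and 31 had no read in at least 1 library. Of the 992 annotated genes of these biotypes, 673 had no read in any library. At the cutoff, RF00096 (ENSG00000212144), RF00409 and SNORA31 stood just inside with 1.04, 1.07 and 1.10 FPKM, and RF00191, SNORA12 and RF00410 stood just outside with 0.993, 0.978 and 0.948 FPKM. Names that begin with RF are the Rfam family numbers that the annotation uses where a gene has no symbol. Of the members, 111 had a mean of 1 FPKM or more in both groups, 9 were under it in control and 6 were under it in *PRMT1* KD. Those 15 passed through the group in which they were higher.

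Whether a guide had any reads differed with what else was annotated over it. Of the 767 snoRNA and scaRNA genes that no exon of another gene touched, 298 had reads, or 38.9%. Of the 212 that shared bases with an exon of another gene on the same strand, 19 had reads, or 8.96%. Of the 158 that such an exon covered from end to end, 0 had a read in any of the 6 libraries. A counter that leaves out reads lying on exons of more than 1 gene gives 0 for such genes by construction. The setting used for these data was not given in the sources used here, and no part of this pattern was tested.

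**Figure D1:**
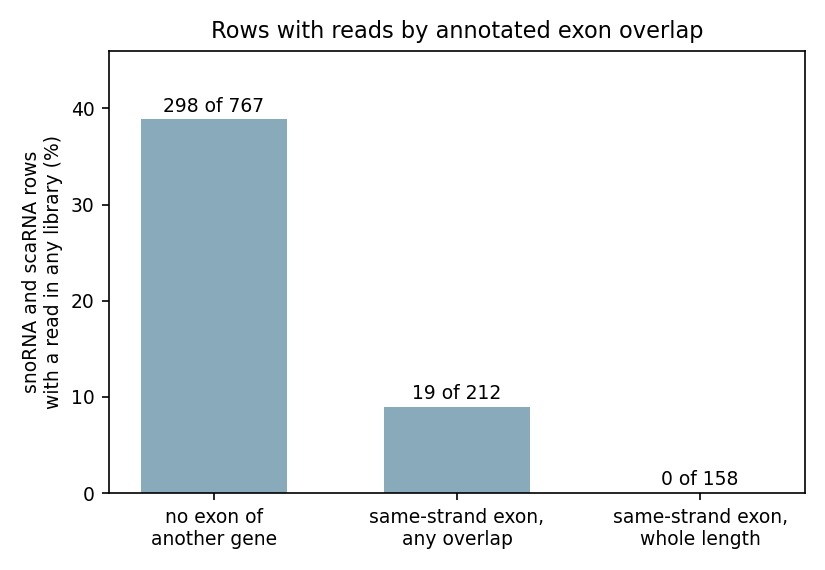
Share of the annotated snoRNA and scaRNA genes with at least 1 read in any of the 6 libraries (y axis, percent), by overlap with exons of other genes (x axis); the number of genes with reads and the total are printed over each bar. The share was 38.9% with no overlapping exon, 8.96% with a same-strand exon and 0 where that exon covered the whole guide (the third bar is a subset of the second).

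The hosts show this gene by gene. Of the 52 guides inside hosts other than SNHG14, 34 lay under a same-strand exon and 0 of these had reads, while 15 of the 17 that lay clear of any exon did. SNHG1 holds 7 annotated guides, SNORD22 and SNORD25 to SNORD28 among them, and all 7 sat under its exons with no reads. In SNHG3, SNORA73A lay under an exon with no read, and SNORA73B, clear of it, had 492 reads over the 6 libraries. SNORD12 was at 0 inside ZFAS1 and its neighbour SNORD12B was not. The table lists no guide inside GAS5, and the GAS5 guides were not analysed here. A value of 0 at such a gene was not read as absence of the guide, and the 126 members are not all guides of the cell.

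Host levels differed widely, as the plot of host FPKM by library shows. SNHG6 was the highest at 85.3 FPKM over all libraries, followed by GAS5 at 63.7, SNHG8 at 46.4, SNHG1 at 32.6 and SNHG19 at 28.2 FPKM. SNHG3, ZFAS1, SNHG16, SNHG15 and SNHG17 lay between 23.0 and 9.71 FPKM. SNHG21 was the lowest of the 23 tested, at 1.86 FPKM. The other 5 hosts were below the level tested: SNHG26 and SNHG22 had means of 0.878 and 0.72 FPKM, and SNHG18 and both genes named SNHG28 had under 10 reads. By reads rather than by level the first host was SNHG14, whose annotated exons add up to 43324 bases. It took 28.6% to 29.8% of all host reads in control and 26.1% to 27.3% in *PRMT1* KD.

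**Figure D2:**
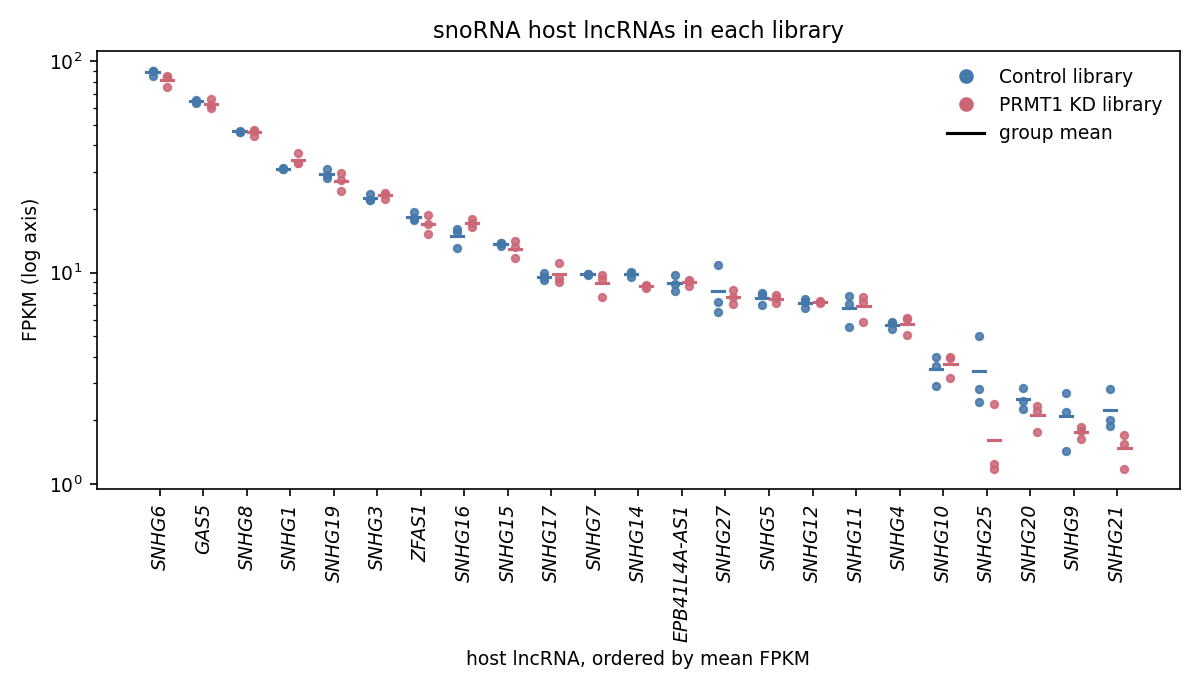
FPKM (y axis, log scale) of the 23 host lncRNAs with a mean of at least 1 FPKM, ordered by that mean on the x axis; each point is 1 library, blue for control and red for *PRMT1* KD, with 3 per group, and the short lines are group means. Levels ran from 85.3 FPKM for SNHG6 to 1.86 FPKM for SNHG21, and in 18 of the 23 the 2 groups overlapped.

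No host was called. A gene was called when limma's moderated test on log2(FPKM + 1), adjusted by Benjamini-Hochberg over the 13585 genes with a mean of at least 1 FPKM, gave an adjusted p under 0.05. Over all those genes 279 were called, or 2.05%, with 145 higher and 134 lower in *PRMT1* KD, and leaving out any 1 of the 6 libraries lowered the number to between 13 and 94. Of the 23 hosts 0 were called by limma, and voom, the same package's fit on the worked-back reads, called 1, where it called 6.69% of all genes. At an unadjusted p under 0.05 the hosts numbered 5 (2 higher and 3 lower), beside 19.5% of all genes. In the same 5 hosts the groups did not overlap, beside 25.9% of all genes. The direction was mixed, with 9 hosts higher and 14 lower, and the median log2 fold change was −0.04, against 0.01 over all genes tested.

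Of the 5 hosts with separated groups, SNHG14 rested on the most reads. It lies at chr15:24978583-25419462 on the plus strand. SNHG14 is described although it stood outside the rule for named genes, and it was chosen after its values were seen. Its level was 9.94, 9.56 and 10.1 FPKM in the control libraries and 8.64, 8.44 and 8.76 FPKM in the *PRMT1* KD libraries. Every knockdown library lay below every control library. The log2 fold change was −0.17 (SE 0.05, 95% interval −0.29 to −0.06), and the adjusted p was 0.121 with limma. With voom the log2 fold change was −0.20 and the adjusted p 0.0274. All hosts together took 0.145% to 0.15% of the reads on genes in control and 0.139% to 0.142% in *PRMT1* KD. Without SNHG14 the ranges were 0.103% to 0.105% and 0.101% to 0.104%, and overlapped.

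SNHG1 and SNHG16 were the 2 hosts whose knockdown libraries all lay above the control libraries. SNHG1, the host of SNORD22 and SNORD25 to SNORD31, had 31.2, 31.1 and 31.1 FPKM in control and 32.9, 32.9 and 36.7 FPKM in *PRMT1* KD. Its log2 fold change was 0.13 (SE 0.05, adjusted p = 0.247). The control libraries lay close together, and the third knockdown library stood apart from the other two. SNHG16, the host of SNORD1A to SNORD1C, had 13.1, 15.6 and 16.0 FPKM in control and 16.5, 18.0 and 17.2 FPKM in *PRMT1* KD. The SNHG16 log2 fold change was 0.20 (SE 0.08, adjusted p = 0.235). The gap between its highest control library and its lowest knockdown library was smaller than the spread within control.

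SNHG25 and SNHG21 had the most negative log2 fold changes of the hosts and were thinly covered. SNHG25, the host of SNORD104, had 5.0, 2.45 and 2.83 FPKM in control and 2.40, 1.25 and 1.18 FPKM in *PRMT1* KD, on a mean of 11.3 reads per library. Its log2 fold change was −0.75 (SE 0.25, adjusted p = 0.167). The highest knockdown library lay just below the lowest control library, each on 11 reads, and 48.6% of its exon bases were shared with exons of other genes on its strand. SNHG21 had 1.89, 2.83 and 2.01 FPKM in control and 1.55, 1.72 and 1.18 FPKM in *PRMT1* KD. For SNHG21 the log2 fold change was −0.38 (SE 0.15, adjusted p = 0.216) on a mean of 31.3 reads, with 72.9% of its exon bases shared with AC105339.2. SNHG20 was next, at −0.18 (SE 0.11, adjusted p = 0.42), and its groups overlapped.

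**Figure D3:**
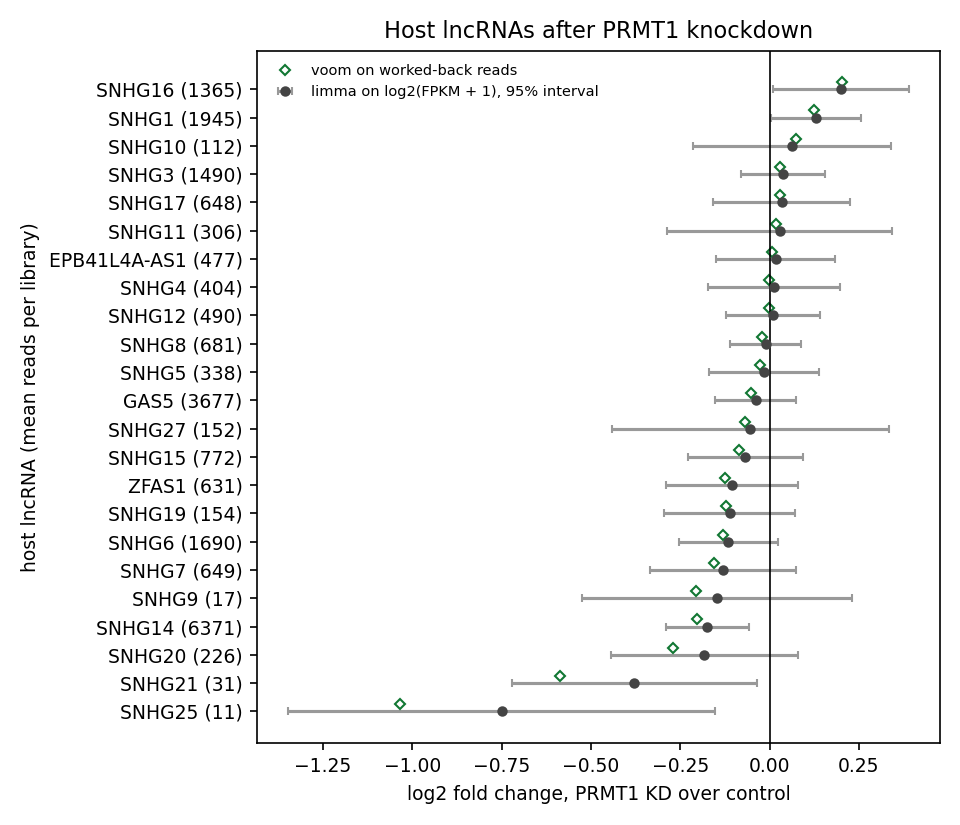
Log2 fold change of *PRMT1* KD over control (x axis) for the 23 tested host lncRNAs (y axis, with the mean reads per library in brackets). Black points with bars are the limma estimates on log2(FPKM + 1) and their 95% intervals, and green diamonds are the voom estimates; the intervals of SNHG16, SNHG1, SNHG14, SNHG21 and SNHG25 lie clear of 0, all before adjustment over genes.

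The most abundant hosts moved little. SNHG6 had 90.4, 90.1 and 85.6 FPKM in control and 75.5, 84.4 and 85.7 FPKM in *PRMT1* KD, a log2 fold change of −0.12 (95% interval −0.25 to 0.02). Its first 2 knockdown libraries lay below every control library, and the third was level with the lowest control library. GAS5, which is known as a growth-arrest transcript and a decoy for the glucocorticoid receptor, had 63.9, 63.9 and 66.0 FPKM in control and 60.2, 62.2 and 66.1 FPKM in *PRMT1* KD. The GAS5 log2 fold change was −0.04 (95% interval −0.15 to 0.07). SNHG8 had 46.5, 46.5 and 46.9 FPKM in control and 47.2, 47.0 and 44.5 FPKM in *PRMT1* KD, a log2 fold change of −0.01 (95% interval −0.11 to 0.09). For these 3 hosts the intervals left room for a change of at most 0.25 on the log2 scale. SNHG19, SNHG3, ZFAS1, SNHG15, SNHG17 and SNHG10 had log2 fold changes between −0.11 and 0.06, with overlapping groups in each.

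The start of a host transcript is where a TOP tract would lie. The windows below run from 10 bases before to 20 bases from the RefSeq start on GRCh38.p14, and show 2 hosts with such a tract and 1 without it. Capitals mark a run that begins with C at the start and goes on with C or T. SNHG5 is at chr6:85678714-85678743 on the minus strand, ZFAS1 at chr20:49278632-49278661 on the plus strand and SNHG17 at chr20:38435309-38435338 on the minus strand.
SNHG5: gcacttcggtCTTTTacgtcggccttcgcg
ZFAS1: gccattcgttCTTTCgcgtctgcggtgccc
SNHG17: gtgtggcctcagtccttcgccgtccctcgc
A C at the start followed by a run of C or T to at least 5 bases in all was found in 6 of the 23 hosts with a RefSeq window, or 26.1%. It was found in 64.3% of 70 ribosomal protein genes and in 4.04% of all 27305 windows. The result depends on the exact start base in RefSeq. The 23 hosts with a window are not the same as the 23 tested. They include SNHG18, SNHG22, SNHG26 and SNHG28, which were not tested, and SNHG18 had the run but no reads. Some tested hosts, SNHG6 among them, had no window, so the share does not describe the tested hosts. Of the 84 ribosomal protein genes tested, 1 was called lower and 0 higher by limma, beside 2.05% of all genes, and the median log2 fold change was −0.03. At an unadjusted p under 0.05 there were 19, of which 15 were lower and 4 higher, beside 19.5% of all genes. RPL37, which was the gene called, had 110 ± 4.82 FPKM in control and 87.1 ± 2.29 FPKM in *PRMT1* KD (SD, n = 3 each). With voom 9 ribosomal protein genes were called lower, beside 6.69% of all genes called in either direction.

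Among the small RNAs 3 of the 126 were called, all higher in *PRMT1* KD and each on fewer than 10 reads per library. They were SNORD62A, RF00134 and SCARNA8. All 3 had a control mean under 1 FPKM and reached the cutoff only through the *PRMT1* KD libraries, in which they were high, so their direction was fixed by the selection and their calls are given as a description. With no filter on level, 0 of the small RNAs were called. The number called fell to 0 without Control library 1, *PRMT1* KD library 1 or *PRMT1* KD library 3, and to 1 without Control library 2 or *PRMT1* KD library 2. Among all tested genes with a mean under 10 reads the share called was 1.14%. By voom 0 of the 126 were called, and 11 had an unadjusted p under 0.05. Of the 36 with a mean of 10 or more reads, 0 were called by either fit, and 6 had an unadjusted p under 0.05 with limma. Over the 126, 64 were higher and 62 lower, 20 had an unadjusted p under 0.05 (14 of them higher), beside 19.5% of all genes. The groups did not overlap in 9 that were higher and 5 that were lower, beside 25.9% of all genes. The median log2 fold change was 0.02. These counts and the median take in the 9 members under 1 FPKM in control and the 6 under it in *PRMT1* KD. The direction of those members was fixed by the selection, so the split into higher and lower is a description.

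**Figure D4:**
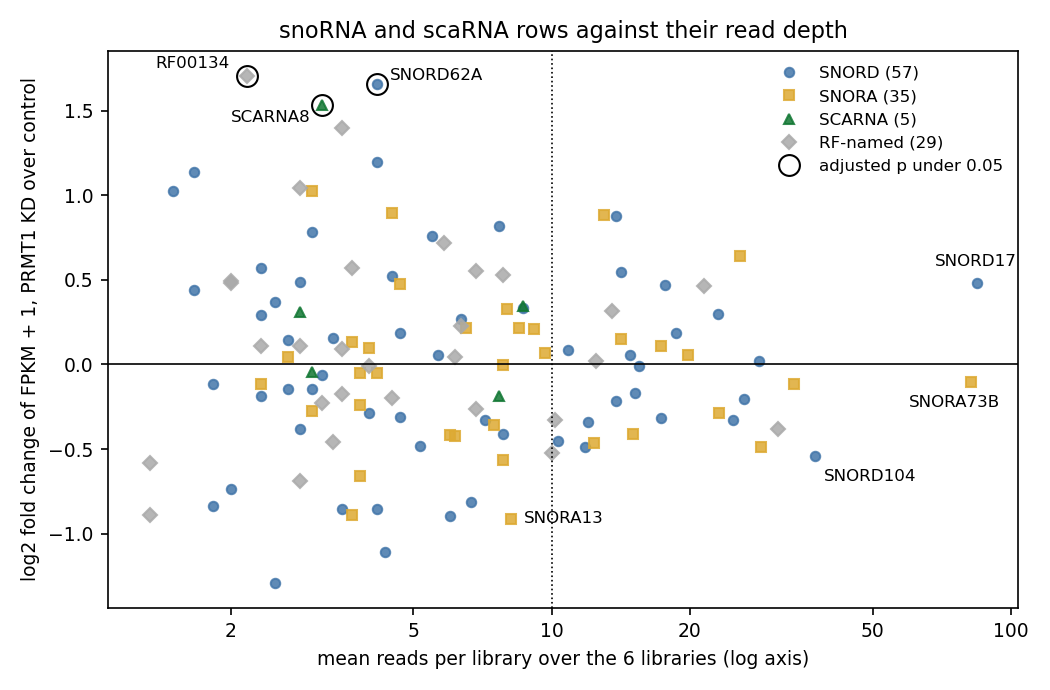
Log2 fold change of FPKM + 1, *PRMT1* KD over control (y axis), against mean reads per library (x axis, log scale) for the 126 snoRNAs and scaRNAs; each point is 1 gene, shaped by the start of its name, rings mark an adjusted p under 0.05 and the dotted line is at 10 reads. The 3 ringed genes lie between 2.17 and 4.17 mean reads, and the spread narrows to the right, where SNORD17 (0.48) and SNORA73B (−0.10) lie.

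The 3 called guides are shown to make clear what was counted. SNORD62A (chr9:131485665-131485750, plus strand) and SNORD62B (chr9:131490486-131490571, plus strand) are a pair of box C/D guides in introns of PRRC2B. RF00134 (chr2:206161841-206161929, plus strand) lies in EEF1B2, the gene of a translation elongation factor. SCARNA8 (chr9:19063656-19063786, minus strand) lies in HAUS6, a gene of the augmin complex of the spindle. Capitals mark the D box, and in SCARNA8 the ACA. The C box letters searched for were not in the windows.
SNORD62A: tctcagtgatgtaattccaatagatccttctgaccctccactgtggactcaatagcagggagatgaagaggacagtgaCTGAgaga
SNORD62B: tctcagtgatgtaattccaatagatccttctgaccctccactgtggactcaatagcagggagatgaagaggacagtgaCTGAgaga
RF00134: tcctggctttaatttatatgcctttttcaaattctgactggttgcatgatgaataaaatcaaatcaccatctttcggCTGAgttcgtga
SCARNA8: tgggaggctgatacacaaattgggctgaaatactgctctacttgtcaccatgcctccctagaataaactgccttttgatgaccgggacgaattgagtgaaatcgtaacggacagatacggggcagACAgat
SNORD62A and SNORD62B differ at 0 bases, so a read lying within the guide fits both places equally.

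In control SNORD62A had 1, 2 and 1 reads (0.949 ± 0.427 FPKM, SD, n = 3), and in *PRMT1* KD 9, 4 and 8 reads (5.23 ± 1.73 FPKM). All knockdown libraries lay above all control libraries. Among genes selected on level the log2 fold change of FPKM + 1 was 1.65 (SE 0.25, adjusted p = 0.0327, and 0.113 with no filter). The ratio of reads summed over the libraries, scaled to depth, was 5.60 with a 95% counting interval of 1.89 to 22.4. That interval leaves out the spread between libraries. Since SNORD62A passed the cutoff only through *PRMT1* KD, the interval is a description only. Its identical copy SNORD62B had 18, 27 and 19 reads in control and 27, 20 and 27 in *PRMT1* KD, with overlapping groups and a log2 fold change of 0.30 (adjusted p = 0.371). PRRC2B, which holds both, had a log2 fold change of −0.05 (adjusted p = 0.801). How reads that fit both copies were placed was not given in the sources used here, so the SNORD62A value is uncertain.

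RF00134 had 0, 1 and 0 reads in control and 4, 5 and 3 reads in *PRMT1* KD. The groups were apart, on 1 read in all in control, and RF00134 too was a member only through its *PRMT1* KD level (2.95 FPKM against 0.232 FPKM). The log2 fold change was 1.70 (SE 0.26, adjusted p = 0.0343, and 0.114 with no filter), and the ratio of summed reads was 12.8 with a counting interval of 1.89 to 547. It shares 52 of its bases on the same strand with SNORD51, which had 0, 2 and 0 reads in control and 3, 3 and 1 in *PRMT1* KD. SNORD51 was named after its values were seen. It too reached the cutoff only through *PRMT1* KD (1.90 FPKM against 0.517 FPKM), so its direction was fixed by the selection. EEF1B2 had a log2 fold change of 0.04 (adjusted p = 0.779).

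SCARNA8 had 0, 1 and 1 reads in control and 5, 8 and 4 reads in *PRMT1* KD. Here too no knockdown library fell among the controls, and the cutoff was passed only through *PRMT1* KD (2.85 FPKM against 0.312 FPKM). The log2 fold change was 1.53 (SE 0.25, adjusted p = 0.0421, and 0.131 with no filter), and the ratio of summed reads was 9.07 with a counting interval of 2.15 to 80.9. HAUS6 had 6.22 ± 0.723 FPKM in control and 7.90 ± 1.17 FPKM in *PRMT1* KD (SD, n = 3 each), a log2 fold change of 0.30 (adjusted p = 0.211). With voom the adjusted p of SNORD62A, RF00134 and SCARNA8 was 0.0692, 0.0501 and 0.0554. For all 3 genes the counting intervals cover counting error only and leave out the spread between libraries. After a selection passed only through *PRMT1* KD they are a description.

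Among the 12 guides with the most reads the groups were apart in SNORD17, which was higher in *PRMT1* KD, and in SNORA33, which was lower. Over all genes tested the groups did not overlap in 25.9%. For SNORD17 the reads were 65, 74 and 78 in control and 100, 103 and 85 in *PRMT1* KD. Each knockdown library lay above each control library. In FPKM the means were 18.6 ± 1.80 and 26.4 ± 3.41 (SD, n = 3 each), the log2 fold change was 0.48 (SE 0.10, 95% interval 0.23 to 0.73), and the adjusted p was 0.0719 with limma and 0.11 with voom. SNX5, whose intron holds SNORD17, had 35.4 ± 0.788 FPKM in control and 43.2 ± 2.84 FPKM in *PRMT1* KD. The SNX5 log2 fold change was 0.28 (adjusted p = 0.0626 with limma and 0.0117 with voom). Whether the reads on SNORD17 came from the mature guide or from unspliced SNX5 RNA was not tested.

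SNORA73B had 89, 97 and 77 reads in control and 84, 66 and 79 in *PRMT1* KD. Its groups overlapped and its log2 fold change was −0.10 (95% interval −0.33 to 0.12), beside 0.04 for its host SNHG3. SNORA33, in the ribosomal protein gene RPS12, had 27, 42 and 35 reads in control and 24, 19 and 24 in *PRMT1* KD. Every knockdown library lay below every control library. The guide's log2 fold change was −0.49 (adjusted p = 0.148), while RPS12 had a log2 fold change of 0.12 (adjusted p = 0.247). SNORA55, in the poly(A) binding protein gene PABPC4, had 34, 29 and 43 reads in control and 45, 18 and 33 in *PRMT1* KD, with a log2 fold change of −0.11 (adjusted p = 0.853). PABPC4 was itself called higher, with a log2 fold change of 0.27 and an adjusted p of 0.0384. Within *PRMT1* KD the guide SNORA55 ranged more widely, from 18 to 45 reads, than it differed between groups.

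SNORD19, SNORD14A, SNORD94, SNORA71B, SNORA71C, SNORD62B and RF00012 (ENSG00000199370) completed the 12 together with SNORD104. Their log2 fold changes ran from −0.54 for SNORD104 to 0.64 for SNORA71C. The adjusted p values of these 8 lay between 0.23 and 0.981. SNORD6, in TAF1D, was named after its values were seen. It had 10, 6 and 14 reads in control and 16, 14 and 23 in *PRMT1* KD. The groups did not overlap, and the SNORD6 log2 fold change was 0.88 (SE 0.28, adjusted p = 0.149). TAF1D, a subunit of the RNA polymerase I factor SL1, had a log2 fold change of 0.29 (adjusted p = 0.136 with limma and 0.0316 with voom).

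Set beside their lncRNA hosts, the guides that could be counted did not move as one. Of the 29 members inside hosts, 9 were higher and 20 lower in *PRMT1* KD, with a median log2 fold change of −0.28. SNHG14 alone held 18 of the 29. SNORD104 (chr17:64146083-64146152, plus strand) is 1 of 3 guides annotated inside SNHG25 and the only one with reads. The other 2 lay under same-strand exons. SNORA13 (chr5:112161485-112161617, plus strand) is the guide of EPB41L4A-AS1. SNORD104 and SNORA13 are shown because they are the host guides with the most negative log2 fold changes outside SNHG14. The most positive was that of SNORD99 in SNHG12, at 0.76 on a mean of 5.5 reads (limma adjusted p = 0.443). SNORD99 was named after its values were seen. Capitals mark the C and D boxes, or the ACA.
SNORD104: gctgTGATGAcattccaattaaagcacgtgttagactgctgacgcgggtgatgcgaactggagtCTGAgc
SNORA13: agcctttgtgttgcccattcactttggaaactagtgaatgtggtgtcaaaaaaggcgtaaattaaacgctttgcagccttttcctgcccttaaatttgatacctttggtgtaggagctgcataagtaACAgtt
SNORD104 had 50, 62 and 28 reads in control and 30, 25 and 30 in *PRMT1* KD, a log2 fold change of −0.54 (SE 0.26, adjusted p = 0.316). In FPKM the third control library, at 24.2, lay below every knockdown library (25.95, 24.8 and 28.1), against the direction of the other control libraries. The limma adjusted p was 0.0497 without that library, the lowest of the 17 alternatives, which ran up to 0.606. With voom and TMM it was 0.318. SNORA13 had 11, 8 and 16 reads in control and 5, 5 and 4 in *PRMT1* KD, a mean of 8.17 and so under 10 reads. The groups did not overlap, and the log2 fold change was −0.91 (SE 0.20), with an adjusted p of 0.0701 by limma and 0.204 by voom. EPB41L4A-AS1 had 8.93 ± 0.784 FPKM in control and 9.03 ± 0.324 FPKM in *PRMT1* KD (SD, n = 3 each). Both were named after their values were seen.

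SNHG17 holds 3 member guides of 1 family, SNORA71A, SNORA71B and SNORA71C. SNORA71C had 19, 24 and 17 reads in control and 33, 41 and 20 in *PRMT1* KD, a log2 fold change of 0.64 (adjusted p = 0.23). SNORA71A had 24, 17 and 13 reads in control and 15, 11 and 10 in *PRMT1* KD, a log2 fold change of −0.41 (adjusted p = 0.312). SNORA71B had 26, 27 and 26 reads in control and 13, 23 and 24 in *PRMT1* KD, a log2 fold change of −0.28 (adjusted p = 0.504). SNORA71A and SNORA71C are apart by 23 edits over 134 bases. SNHG17 itself had a log2 fold change of 0.03. SNORD12B in ZFAS1, SNORD1B in SNHG16 and SCARNA13 in SNHG10 had under 10 reads each and log2 fold changes of 0.33, −0.48 and −0.19, none of them called.

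The SNORD116 cluster gave the largest group of guides from 1 host. Of its 30 annotated copies 18 were members, all inside SNHG14. The copies are nearly the same, as the following examples show (SNORD116-1 at chr15:25051477-25051571, SNORD116-2 at chr15:25054210-25054304 and SNORD116-6 at chr15:25065026-25065121, all on the plus strand, with C and D boxes in capitals).
SNORD116-1: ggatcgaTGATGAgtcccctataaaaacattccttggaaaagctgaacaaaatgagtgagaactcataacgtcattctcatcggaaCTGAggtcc
SNORD116-2: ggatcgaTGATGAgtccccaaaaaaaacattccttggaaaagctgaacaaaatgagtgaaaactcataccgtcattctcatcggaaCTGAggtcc
SNORD116-6: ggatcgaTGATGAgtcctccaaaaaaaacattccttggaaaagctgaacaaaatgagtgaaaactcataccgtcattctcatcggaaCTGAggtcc
SNORD116-2 and SNORD116-6 are 1 edit apart, SNORD116-1 and SNORD116-2 are 4 apart, and 6 of the 30 copies share their sequence exactly with another gene, so values of single copies are uncertain.

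Copy by copy, 13 of the 18 were lower and 5 higher in *PRMT1* KD, 0 were called by limma or voom, and 1 had an unadjusted p under 0.05 with either. That copy, SNORD116-15, was named after its values were seen. It reached the cutoff only through control (2.66 FPKM against 0.658 FPKM in *PRMT1* KD), so its direction was fixed by the selection. The median log2 fold change was −0.32, against 0.01 over all genes tested. The copies lie in the same host and were counted in the same libraries. They are therefore not independent, and their split and median are a description. SNORD116-6, the copy with the most reads, had 25, 13 and 22 reads in control and 20, 13 and 11 in *PRMT1* KD, a log2 fold change of −0.32 (adjusted p = 0.521). Summed over the 18 members, the reads were 137, 129 and 137 in control and 103, 98 and 94 in *PRMT1* KD. Per 1000000 reads on genes this was 8.32, 8.03 and 8.51 against 6.31, 6.79 and 6.10. The sums of the groups did not overlap, and neither did those over all 30 copies, which were 137, 131 and 143 against 104, 100 and 95 reads. No p-value is given for the sum, because the copies were chosen with results of these libraries known. Whether the reads on the copies came from mature guides or from unspliced SNHG14 RNA was not tested. The SNORD115 cluster further along SNHG14 had at most 4 reads per library over its 48 copies.

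**Figure D5:**
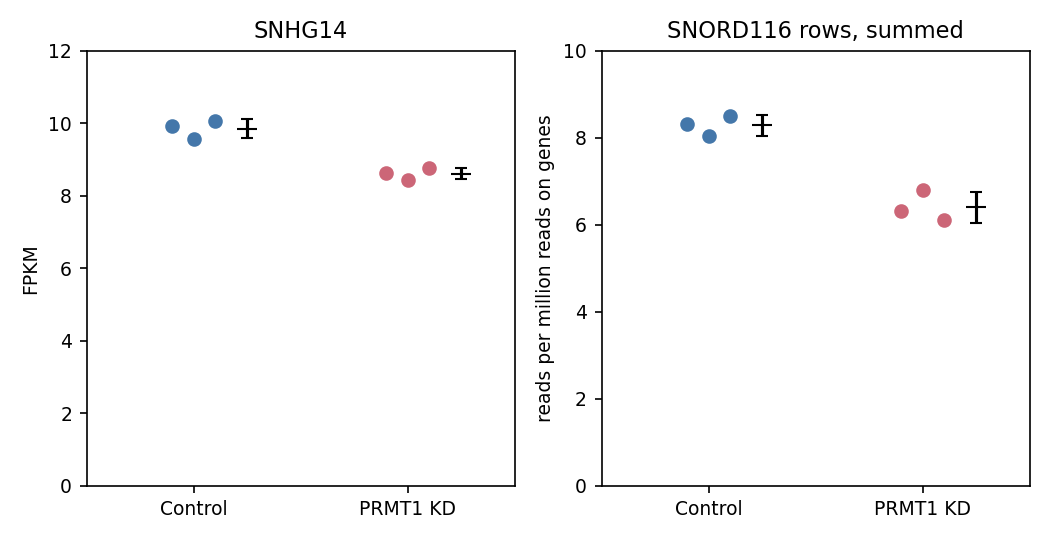
SNHG14 in FPKM (left y axis) and the reads on the 18 SNORD116 members per 1000000 reads on genes (right y axis), by group on the x axis; points are the 3 libraries of each group, and the black marks are the mean and SD. In both panels all *PRMT1* KD libraries lie below all control libraries (8.44 to 8.76 against 9.56 to 10.1 FPKM, and 6.10 to 6.79 against 8.03 to 8.51 reads per 1000000). Whether the reads in the right panel came from mature guides or from unspliced SNHG14 RNA was not tested.

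Other transcripts of the same region gave mixed values. SNRPN, which shares exon bases with SNHG14, had a log2 fold change of −0.17 (adjusted p = 0.289), SNURF one of −0.34 (adjusted p = 0.218), PWAR5 one of −0.16 and PWAR6 one of 0.03. UBE3A, the ubiquitin ligase gene on the opposite strand, had 9.80 ± 0.601 FPKM in control and 12.3 ± 0.633 FPKM in *PRMT1* KD (SD, n = 3 each). Its log2 fold change was 0.30 (SE 0.06), with an adjusted p of 0.0663 by limma and 0.00895 by voom. The strand setting of the counting was not given in the sources used here, and 0.457% of SNHG14 exon bases lie opposite exons of UBE3A.

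The genes of the proteins that build and use the guides gave 1 call, for NOLC1. In the box C/D core, fibrillarin (FBL), the methyltransferase, had 78.1 ± 2.69 FPKM in control and 86.4 ± 4.0 FPKM in *PRMT1* KD (SD, n = 3 each), a log2 fold change of 0.14 (adjusted p = 0.179). FBL carries asymmetric dimethylarginine in its glycine- and arginine-rich part and is a known PRMT1 substrate. NOP56, NOP58 and SNU13 had log2 fold changes of 0.03, 0.10 and −0.11. In the box H/ACA core, the pseudouridine synthase dyskerin (DKC1) had a log2 fold change of 0.08, NHP2 one of −0.05, GAR1 one of 0.06 and NOP10 one of −0.22 (adjusted p = 0.0909). By limma and by voom 0 of these proteins were called. At an unadjusted p under 0.05 with limma there were 2 of the 4 box C/D proteins, FBL and SNU13, and 1 of the 4 box H/ACA proteins, NOP10, beside 19.5% of all genes. The groups did not overlap in FBL and DKC1, which were higher in *PRMT1* KD, or in SNU13 and NOP10, which were lower, beside 25.9% of all genes.

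Of the 11 assembly factors 1 was called, beside 2.05% of all genes. NOLC1, a nucleolar and Cajal body phosphoprotein that escorts both classes of particle, rose from 36.6 ± 2.67 to 47.6 ± 0.163 FPKM (SD, n = 3 each). Its log2 fold change was 0.37 (SE 0.06, adjusted p = 0.0377), and the call was lost without Control library 1 (adjusted p = 0.143), Control library 2 (0.115), *PRMT1* KD library 1 (0.0918), library 2 (0.137) or library 3 (0.087). The other assembly factors, which include RUVBL1 and RUVBL2 of the R2TP complex, had log2 fold changes between −0.13 and 0.09. Of the 2 Cajal body proteins, COIL and WRAP53, and the 5 factors of intron release and trimming (DBR1, EXOSC10, PARN, XRN1 and XRN2), 0 were called by limma or voom, and 0 had an unadjusted p under 0.05. Of the 10 factors of nonsense-mediated decay, limma called 0, with 2 at an unadjusted p under 0.05 beside 19.5% of all genes. The kinase SMG1 was called higher by voom (adjusted p = 0.0209, log2 fold change in the limma fit 0.23). LARP1, which binds TOP mRNAs, had a log2 fold change of 0.05.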

How the data were processed

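RNA-seq of 3 control and 3 *PRMT1* KD libraries of MM.1S cells was analysed from 1 table of FPKM values that the authors deposited for all genes. The submitters' processing notes name featureCounts 1.5.0-p3 and hg38. The aligner, strand setting, treatment of multi-mapped reads, selection of RNA and size range of the libraries were not given in the sources used here. Gene identifiers, coordinates and lengths of all 58735 genes equalled GENCODE 29, from which positions, exon overlaps and guide sequences were read.

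FPKM multiplied by gene length gave whole multiples of 1 step in 100% of values (tolerance 0.001), from which reads were worked back. The library size implied by the step was 98.8% to 102.6% of the summed reads, and how it was set was not given. Differences were tested with limma 3.58.1 (R 4.3.3) on log2(FPKM + 1), pseudocount 1, with a mean-variance trend, two-sided, over genes with a mean of at least 1 FPKM. A fold change on this scale understates that of low genes. The alternatives were another pseudocount, other filters, TPM, quantile normalization, no trend, voom on the reads, a replicate block and leaving out each library. Counting intervals of read ratios are exact binomial, at 95%.

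Named genes were PRMT1, the 10 highest hosts, the 3 hosts with the most positive and the 3 with the most negative fold changes among those with 10 or more reads, hosts called, the 12 guides with the most reads, guides called, genes next to the cutoff, counted guides of named hosts, the core proteins and list genes called. Exceptions are marked in the text. Members and lists were chosen with earlier results of these data known.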

Additional observations from a re-analysis of the deposited data

How the results depend on the processing

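The count of genes called went from 279 to 35 with no filter on level, 43 without the trend, 473 at a mean of at least 5 FPKM, 909 with voom and TMM, 927 with voom and median-of-ratios scaling and 930 with voom over genes with 10 or more reads (the last chosen after seeing the data). Leaving out any 1 of the 6 libraries gave 13 to 94, and fewer samples enter each such fit. The count of hosts called went from 0 to 1 with the 3 voom fits, where it was SNHG14, and to 1 with the replicate block, where it was SNHG25 (adjusted p = 0.0464). SNHG14 was lower in all 17 alternatives, from −0.20 to −0.16 on the log2 scale, with an adjusted p from 0.0274 to 0.34.

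The count of snoRNAs and scaRNAs called went from 3 to 1 with a pseudocount of 0.1, at a mean of at least 5 FPKM and with voom and median-of-ratios scaling. It went to 0 with no filter, with 10 or more reads, without the trend and with both voom fits under TMM. It was 0 without Control library 1, *PRMT1* KD library 1 or *PRMT1* KD library 3, and 1 without Control library 2 or *PRMT1* KD library 2 (range over the left-out libraries 0 to 3). SNORD17 passed the threshold only at a mean of at least 5 FPKM (adjusted p = 0.0313), where fewer genes were tested. The count of core proteins called was 0 under all 17 alternatives.

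The host median moved from −0.04 to −0.014 at 5 FPKM and ranged from −0.065 to −0.016 with 1 library left out. The median of the small RNAs moved from 0.02 to −0.057 over those with 10 or more reads under limma, and to −0.062 under voom. Log2 fold changes near 0 turned in sign: SNHG8 to 0.0082 with TPM, and SNORD19 to −0.011 with voom and TMM, −3.1e-05 with median of ratios and −0.0079 with voom over genes with 10 or more reads. With 1 library left out, values on both sides of 0 were given by SNHG8 (−0.026 to 0.015), SNHG17 (−0.049 to 0.088), SNHG10 (−0.036 to 0.15), EPB41L4A-AS1 (−0.036 to 0.077), SNORA55 (−0.34 to 0.18), SNORD19 (−0.31 to 0.30), SNORD14A (−0.46 to 0.14), SNORD94 (−0.60 to 0.096), SCARNA13 (−0.69 to 0.083) and GAR1 (−0.050 to 0.13). None of these was called under any alternative, and the cause was not tested.

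The deviations of control and knockdown libraries with the same number correlated at 0.02, 0.063 and 0.101, so not every pair passed 0.1 and the numbers were not taken as pairing. Each library did correlate best with the library of its own number. For Control library 1 the margin was slight, at 0.01998 with *PRMT1* KD library 1 against 0.01865 with *PRMT1* KD library 2. The order of these correlations was therefore not read as pairing, and the design names none. With the replicate block, 204 genes, 1 host and 2 small RNAs (RF00134 and SNORA80B, the latter named after its value was seen) were called, and NOLC1 was no longer called (adjusted p = 0.0522). Depth limits the small RNAs, since 90 of the 126 rest on fewer than 10 reads per library.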
